A study of Mus musculus with 8 samples.

Results

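The genes encoding the 3 members of the PGC-1 coactivator family, Ppargc1a (PGC-1α), Ppargc1b (PGC-1β) and Pprc1 (PRC), and the phosphatidate phosphatases Lpin1 and Lpin2 were examined for glucocorticoid receptor (GR) and FOXO1 occupancy in mouse liver. Overlapping regions from 6 GR ChIP-seq libraries were merged into 51431 sites, and the 72 sites centred within 50 kb of the gene starts of these 5 genes (mm10 coordinates, GENCODE M21 annotation) were taken, together with the 16 FOXO1 regions centred in the same windows. Lpin1 had 24 of the sites, Lpin2 13, Ppargc1b 12, Pprc1 12 and Ppargc1a 11. Livers came from adult male C57BL/6J mice and were collected at lights-off. Control mice (ctrl.) ate chow freely until the last week, when it was offered only at night, cal. res. mice received a restricted daily ration of chow at lights-off, and CORT mice were fed only at night while they were given corticosterone, the main glucocorticoid of rodents. No group carried a transgene or deletion, and the tissue was whole liver rather than isolated hepatocytes, so a weaker peak and a smaller share of cells with the factor bound cannot be told apart. Each group had 2 GR libraries, with peaks called in each library. The FOXO1 regions came from 1 list, for which 2 cal. res. libraries had been merged before peak calling, so FOXO1 was measured in cal. res. livers without replicate spread.

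PGC-1α is a transcriptional coactivator with no DNA-binding domain of its own. It is induced in the fasting liver, where it works with HNF4α, FOXO1, GR, PPARα and ERRα at gluconeogenic, fatty acid oxidation and mitochondrial genes. PGC-1β acts on mitochondrial genes and with SREBP on lipogenic genes, and PRC is the third, more ubiquitous member of the family. Lipins convert phosphatidate to diacylglycerol in triacylglycerol synthesis, and lipin 1, itself a glucocorticoid-inducible gene, can also enter the nucleus and assist PGC-1α and PPARα.

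Sequence around the GR summit is shown for the strongest site of Ppargc1a, Pprc1, Lpin1 and Lpin2, for the site of Ppargc1a and of Pprc1 with the highest FOXO1 percentile, and for the second site upstream of Lpin1, because the results below turn on these sites. Each stretch holds 200 bases centred on the summit of the library with the highest percentile, read from the RefSeq sequence of the same mouse assembly, and site names give the distance of the site centre from the gene start in the direction of transcription. Capitals mark matches to the motifs searched on both strands.
Ppargc1a 30.24 kb, chr5:51537200-51537399, + strand: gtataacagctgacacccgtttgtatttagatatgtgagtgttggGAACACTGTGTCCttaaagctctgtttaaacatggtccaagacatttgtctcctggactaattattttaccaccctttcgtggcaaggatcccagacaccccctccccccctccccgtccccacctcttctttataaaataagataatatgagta
Ppargc1a 39.63 kb, chr5:51527927-51528126, + strand: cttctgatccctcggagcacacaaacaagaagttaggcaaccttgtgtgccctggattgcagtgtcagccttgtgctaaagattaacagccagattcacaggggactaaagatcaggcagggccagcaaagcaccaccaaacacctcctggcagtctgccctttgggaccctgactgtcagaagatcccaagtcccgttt
Pprc1 -15.00 kb, chr19:46029796-46029995, + strand: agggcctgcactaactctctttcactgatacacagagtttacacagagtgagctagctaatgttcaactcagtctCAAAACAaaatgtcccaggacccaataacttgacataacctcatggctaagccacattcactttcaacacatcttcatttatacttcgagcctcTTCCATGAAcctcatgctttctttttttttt
Pprc1 46.96 kb, chr19:46091738-46091937, + strand: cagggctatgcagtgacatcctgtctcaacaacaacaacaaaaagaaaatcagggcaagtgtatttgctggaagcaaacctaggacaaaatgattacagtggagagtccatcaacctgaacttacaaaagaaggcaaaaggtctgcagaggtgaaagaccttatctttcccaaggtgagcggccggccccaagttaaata
Lpin1 -7.59 kb, chr12:16618511-16618710, + strand: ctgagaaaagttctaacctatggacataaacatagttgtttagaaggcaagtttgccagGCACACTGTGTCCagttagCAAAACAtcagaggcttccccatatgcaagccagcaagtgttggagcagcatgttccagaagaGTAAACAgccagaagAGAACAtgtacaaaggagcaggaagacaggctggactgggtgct
Lpin1 -19.99 kb, chr12:16630470-16630669, + strand: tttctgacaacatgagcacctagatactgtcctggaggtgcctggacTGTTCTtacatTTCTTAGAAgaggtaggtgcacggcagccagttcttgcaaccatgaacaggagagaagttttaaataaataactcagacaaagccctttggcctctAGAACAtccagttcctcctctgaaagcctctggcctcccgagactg
Lpin2 19.79 kb, chr17:71202212-71202411, + strand: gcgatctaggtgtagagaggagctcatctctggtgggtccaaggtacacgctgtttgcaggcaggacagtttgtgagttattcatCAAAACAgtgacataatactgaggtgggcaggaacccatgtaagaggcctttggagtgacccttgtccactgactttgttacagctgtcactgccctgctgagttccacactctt

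The GR element core searched was GNACANNNTGTNC, 2 half-sites for the receptor dimer with 3 bases between them. It was found at 2 of the 72 sites, the Ppargc1a 30.24 kb site (GAACACTGTGTCC, bases 46 to 58) and the Lpin1 -7.59 kb site (GCACACTGTGTCC, bases 60 to 72), against 1.89% of all sites. The Lpin1 -7.59 kb sequence also carried an insulin response element CAAAACA, bound by FOXO factors, at bases 79 to 85, the forkhead core GTAAACA at bases 142 to 148 and a GR hexamer AGAACA at bases 157 to 162. Over the 72 sites the hexamer, which can overlap the GR element core, was present at 15 (18.4% of all sites), the forkhead core at 3 (5.19%) and the insulin response element at 12 (6.57%). The E-box CACGTG was present at 4 sites (4.72% of all sites), the STAT element TTCNNNGAA at 6 (8.16%) and the ERR element TCAAGGTCA at 2 (0.848%). The cAMP response element TGACGTCA, the C/EBP element TTGCGCAA and the PPAR DR1 (AGGTCA repeated after 1 base) had no match in these windows, as in all but 0.665%, 0.218% and 0.121% of all sites. The 15 sites that overlapped FOXO1 held 4 of the 12 insulin response elements and 2 of the 3 forkhead cores.

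A GR site lay over 3 RefSeq transcript starts of Lpin2 and Pprc1, so the data bear on these promoters directly. For these, the 250 bases before the RefSeq start are given, with the same capitals.
Lpin2 upstream promoter, chr17:71183282-71183531, + strand: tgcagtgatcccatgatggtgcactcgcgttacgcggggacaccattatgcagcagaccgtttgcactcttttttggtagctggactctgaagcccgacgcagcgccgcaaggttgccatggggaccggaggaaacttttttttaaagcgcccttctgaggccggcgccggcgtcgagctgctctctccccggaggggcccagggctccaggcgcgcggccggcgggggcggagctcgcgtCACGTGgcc
Lpin2 internal promoter, chr17:71204404-71204653, + strand: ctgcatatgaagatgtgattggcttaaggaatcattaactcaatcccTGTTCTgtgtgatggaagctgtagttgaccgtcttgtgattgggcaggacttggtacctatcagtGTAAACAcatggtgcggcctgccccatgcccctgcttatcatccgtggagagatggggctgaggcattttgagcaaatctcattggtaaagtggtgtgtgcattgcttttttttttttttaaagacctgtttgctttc
Pprc1 promoter, chr19:46056289-46056538, + strand: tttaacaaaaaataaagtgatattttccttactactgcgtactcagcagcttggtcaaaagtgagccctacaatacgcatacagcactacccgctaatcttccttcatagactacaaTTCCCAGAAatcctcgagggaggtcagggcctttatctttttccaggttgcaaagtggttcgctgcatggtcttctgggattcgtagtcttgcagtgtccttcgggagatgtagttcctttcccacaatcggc
The upstream Lpin2 promoter held an E-box at bases 242 to 247, a motif present in 6.02% of the 32851 RefSeq promoter windows of this length. The internal Lpin2 promoter held a GR hexamer as TGTTCT and a forkhead core (16.1% and 3.17% of promoters), and the Pprc1 promoter held a STAT element, TTCCCAGAA (7.02%).

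All 5 genes had sites held by each group, where a site counts as held by a group only if each of the group's replicates had a peak in it. Over all 21938 protein-coding genes, 48.6% had a site held by ctrl. within 50 kb, 47.2% a site held by cal. res., 60.9% a site held by CORT and 31.2% a site that overlapped FOXO1. The median protein-coding gene had 3 sites of any kind. Lpin1, with 24, had more than 99.5% of genes, and the other members had more than 88.2% to 92.4% of genes. By held sites, Lpin1 had more than 91.4% of genes in ctrl., 93.2% in cal. res. and 99.4% in CORT. Ppargc1b had more than 98.8%, 97.8% and 88.4% of genes in the same order. Hepatocyte genes of a marker list (Alb, Apoa1, Ttr, Tat and Apob) all had a site held by each group, against 1 of 4 genes of other organs (Ins2, Myh6, Neurod1 and Myog) in ctrl. and cal. res. and 3 of 4 in CORT.

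Of the 72 sites, ctrl. held 22, cal. res. 25 and CORT 35. Of all sites, 21.4% were held by ctrl., 27.9% by cal. res. and 43.7% by CORT. All 3 groups held 16 of the member sites (15.7% of all sites), 25 were held by 1 or 2 groups and 31 by none. These 16 were also the member sites with a peak in all 6 lists (15.7% of all sites). The lists differed in length, from 12458 regions in ctrl. replicate 2 to 39136 in CORT replicate 2, and the members followed this. The 72 sites had a peak 50 times in ctrl. replicate 1, 22 in ctrl. replicate 2, 35 and 30 in cal. res. replicates 1 and 2 and 45 and 56 in the CORT replicates. Of all sites, 67.6%, 22.3%, 40.3%, 33.7%, 53.8% and 73.6% had a peak in these libraries. Library names fell into 2 styles, one shared by both cal. res. libraries with ctrl. replicate 2 and the other by the CORT libraries with ctrl. replicate 1. Whether these styles mark a batch is not stated, so cal. res. against CORT and the name style cannot be told apart.

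**Figure D1:**
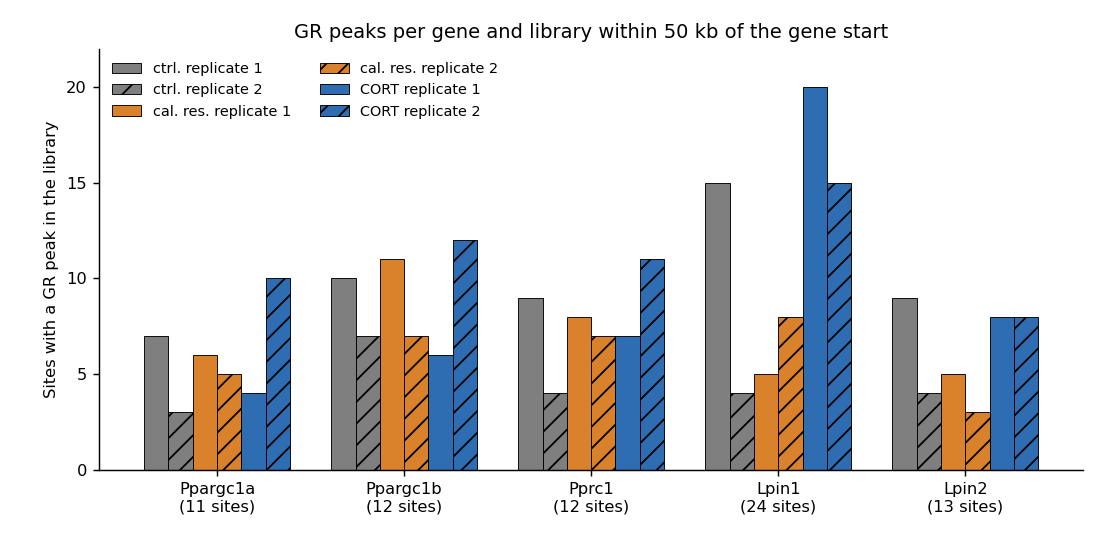
Number of sites (y axis) with a GR peak in each of the 6 libraries (bars, hatched for replicate 2) at the 5 genes (x axis). Ctrl. replicate 1 exceeds ctrl. replicate 2 at every gene, and Lpin1 has 20 and 15 peaks in the CORT libraries against 5 and 8 in the cal. res. libraries.

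Sites gained over ctrl. numbered 7 in cal. res. (11.5% of all sites) and 17 in CORT (24.3% of all sites), and 8 of the 17 were at Lpin1. Most had a peak in 1 of the ctrl. libraries, 6 of the 7 and 13 of the 17. With a gain counted where neither ctrl. library had a peak, or with ctrl. replicate 2 left out, 1 site was gained in cal. res. and 4 in CORT. Leaving out cal. res. replicate 1 or 2 gave 12 or 13 gained sites in cal. res., and leaving out CORT replicate 1 or 2 gave 38 or 28 in CORT. Shares over all sites were not computed for these stricter or shortened settings. The only cal. res. gain with no ctrl. peak at all was the Lpin1 -9.31 kb site. With each list shortened to its 12458 most significant regions, 35 member sites remained, and the order of the groups changed. Ctrl. then held 14 (36.0% of all sites), cal. res. 20 (42.5%) and CORT 14 (42.2%), with 8 sites gained in cal. res. (16.0%) and 4 in CORT (15.2%).

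**Figure D2:**
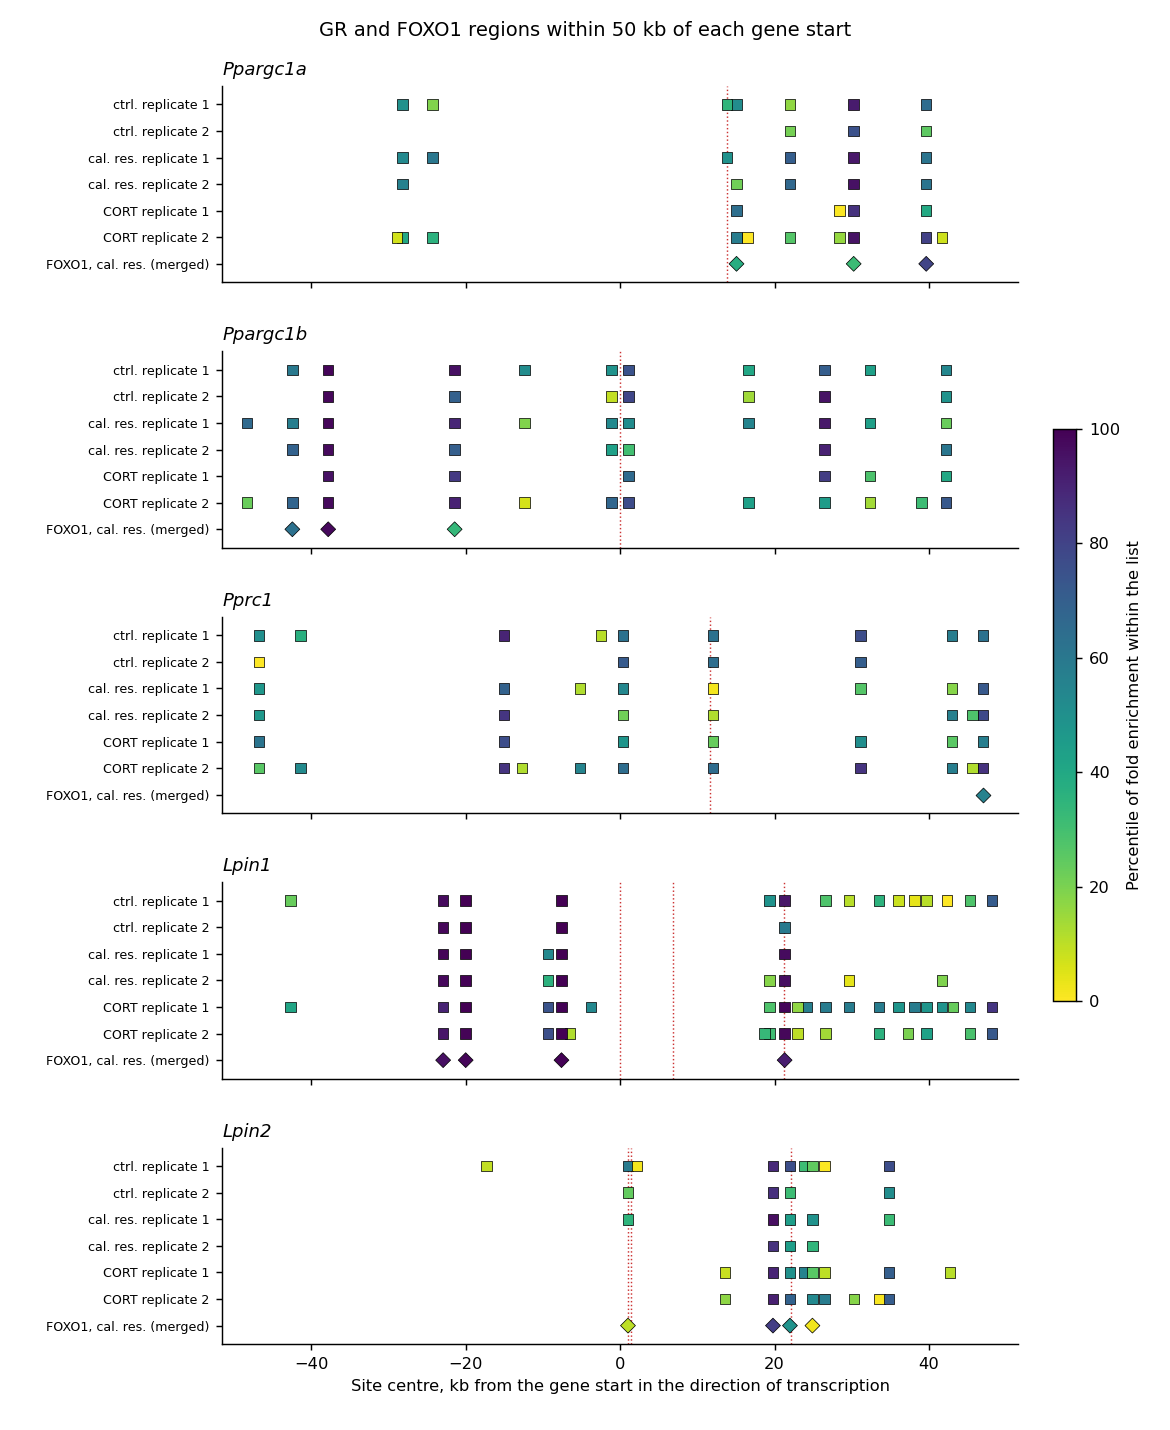
Position of each site (x axis, kb from the gene start in the direction of transcription) by library (rows, squares for GR and diamonds for the merged FOXO1 list), coloured by the percentile of fold enrichment within its list. Dotted red lines mark transcript starts of the GENCODE basic set. Dark columns run through all 6 libraries upstream of Lpin1, and the Lpin1 gene body to the right of 20 kb has squares mainly in ctrl. replicate 1 and in the CORT libraries.

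Lpin1 (chr12:16535669-16610966, minus strand) had the strongest sites of the 5 genes. At the -7.59 kb site, chr12:16617682-16619429 between genes, the within-list percentile, the share of regions in the same list with a lower fold enrichment, was 99.9 and 99.8 for ctrl., 100 and 99.9 for cal. res. and 99.6 and 99.7 for CORT. The summit carried 189 and 141 fragments for ctrl., 419 and 329 for cal. res. and 106 and 240 for CORT, and FOXO1 stood at percentile 99.5 of its list. This site and the neighbouring -19.99 kb site (chr12:16629709-16632211) were near the top of every list. The -19.99 kb site had percentiles of 99.7 and 99.8 in the ctrl. libraries, 99.8 and 99.6 in the cal. res. libraries, 99.9 and 99.2 in the CORT libraries and 98.5 for FOXO1. A further site at -22.91 kb, nearer to the start of Ntsr2 (a neurotensin receptor) than to Lpin1, had 97.0 and 98.4 for ctrl., 98.9 and 97.9 for cal. res. and 90.3 and 94.2 for CORT. There the 2 CORT libraries lay below all 4 others, and 2 FOXO1 regions at percentiles 95.8 and 8.73 overlapped it. These values come from different positions in a merged site of 1869 bp, since the strongest CORT summits lay 868 and 858 bp from the stronger FOXO1 summit and the 4 other summits within 7 bp of it. Each CORT list also had a weaker peak 18 and 22 bp from that FOXO1 summit. Ranked among all peaks of its list, the peak nearest the FOXO1 summit, a measure chosen after the values were seen, stood at 97.2 and 98.5 for ctrl., 99.0 and 98.1 for cal. res. and 69.4 and 93.2 for CORT.

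The Lpin1 21.30 kb site, chr12:16588365-16590970, covered 3 downstream transcript starts of Lpin1, each 21.2 kb from the gene start. Its percentile was 94.3 and 59.2 in the ctrl. libraries (76.7 ± 24.9, mean ± SD, n = 2), 96.9 and 96.2 in the cal. res. libraries (96.6 ± 0.444) and 98.8 and 98.4 in the CORT libraries (98.6 ± 0.287). Both cal. res. and both CORT libraries lay above both ctrl. libraries, and CORT lay above cal. res. FOXO1 stood at percentile 92.1 there. The strongest summit of ctrl. replicate 2, the library with the lowest value, lay 241 bp from the FOXO1 summit. Those of the other libraries lay 12 to 83 bp from it. The GR pileup at the 21.30 kb site was 43 and 21 fragments for ctrl., 76 and 59 for cal. res. and 73 and 108 for CORT. Pileup was also read within each library, as the share of the fragments over the 4 Lpin1 sites shared by all lists, a share that includes background fragments and does not use the length of the list. The 21.30 kb site took 10.6% and 6.56% of these fragments for ctrl., 8.71% and 9.15% for cal. res. and 21.1% and 19.5% for CORT. On this scale both cal. res. values lay between the ctrl. values. The 95% exact binomial intervals, which cover counting error only, were 16.9% to 25.8% and 16.2% to 23.0% in the CORT libraries and ended at 14.0% or lower in the 4 others. The -7.59 kb site took 46.7% and 44.1% for ctrl., 48.0% and 51.0% for cal. res. and 30.6% and 43.2% for CORT. There the interval of CORT replicate 1, 25.8% to 35.8%, lay below those of ctrl. and cal. res., and that of CORT replicate 2, 39.1% to 47.5%, overlapped each of them. The shares of the 4 sites sum to a fixed total, so they are not independent. The share was computed after the values were seen and was not tested.

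**Figure D3:**
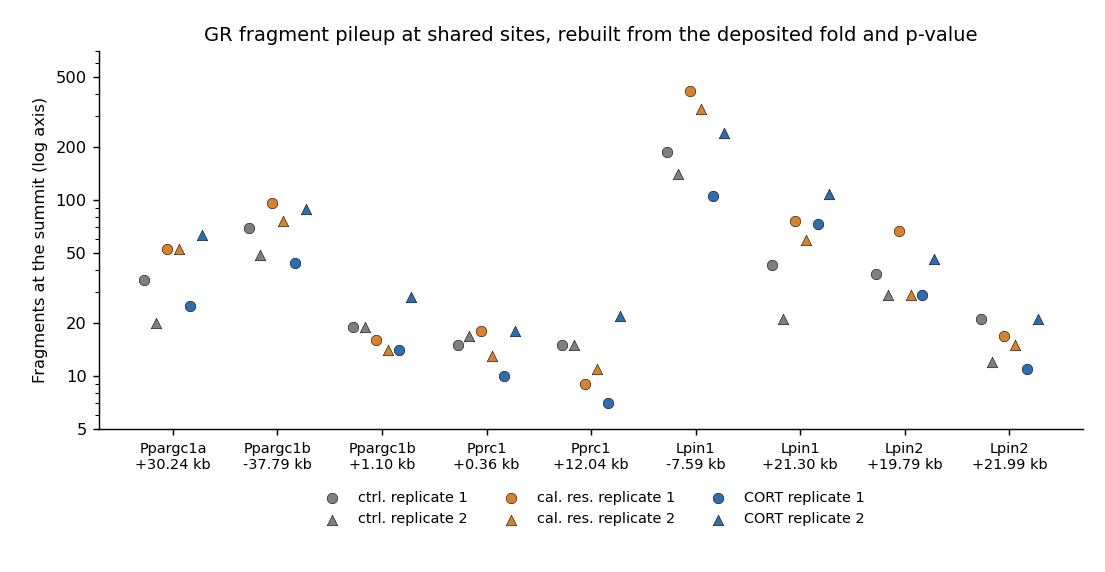
GR fragments at the summit (y axis, log scale) at 9 sites shared by all libraries (x axis), the strongest of each gene and those over a transcript start of the gene, in ctrl. (grey), cal. res. (orange) and CORT (blue), circles for replicate 1 and triangles for replicate 2. The Lpin1 -7.59 kb site reaches 419 and 329 fragments in cal. res., and the Pprc1 12.04 kb site lies between 7 and 22 fragments. Fragments are not scaled for depth between libraries.

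The site nearest the Lpin1 gene start that a group held was the -7.59 kb site, and no GR region reached the upstream start itself. At -9.31 kb (chr12:16619703-16620846), neither ctrl. library had a peak, while the percentile was 52.9 and 36.0 for cal. res. and 74.5 and 76.1 for CORT. Both CORT libraries lay above both cal. res. libraries at this site, which did not overlap FOXO1. The Lpin1 gene body was otherwise a field of weak regions. Beside the 21.30 kb site, 16 sites lay inside the gene, from 18.69 to 48.13 kb, and 7 of them were held, all by CORT alone (48.13, 45.30, 39.70, 33.51, 26.59, 22.99 and 19.34 kb). Peaks were present at 10 of the 16 in ctrl. replicate 1, 0 in ctrl. replicate 2, 0 and 3 in cal. res. against 13 and 9 in CORT. The groups overlapped, with 10 of these regions in ctrl. replicate 1 against 9 in CORT replicate 2. The summits carried 6 to 18 fragments in ctrl. replicate 1, 7 to 23 in CORT replicate 1 and 9 to 22 in CORT replicate 2. The strongest, at 48.13 kb, had percentiles of 71.3, 84.4 and 72.6 in these libraries and no peak in the other 3. The 3 libraries with most peaks in the gene body shared a name style and had the longest lists, and the part of either in this pattern was not tested.

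At Ppargc1a (chr5:51454250-51567726, minus strand), the GR region nearest the annotated gene start was at 13.87 kb, and the nearest one that a group held was at 15.07 kb. The strongest, at 30.24 kb (chr5:51536880-51538085), had percentiles of 92.7 and 75.0 in the ctrl. libraries (83.8 ± 12.5), 93.9 and 95.6 in the cal. res. libraries (94.7 ± 1.21) and 85.9 and 95.2 in the CORT libraries (90.5 ± 6.58). Both cal. res. libraries lay above both ctrl. libraries, by a gap smaller than the spread between the ctrl. replicates. This site carried the GR element core shown above and overlapped a FOXO1 region at percentile 32.0. The 39.63 kb site (chr5:51527709-51528484) had the highest FOXO1 percentile of the gene, 80.0, with GR at 65.1 and 24.8 for ctrl., 61.6 and 61.4 for cal. res. and 39.8 and 80.6 for CORT. Here the replicates of ctrl. and of CORT spanned the cal. res. values.

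The basic transcripts of Ppargc1a in GENCODE started 13.8 kb downstream of the gene start used here. The 13.87 kb site (chr5:51553710-51554006) covered these starts and had a peak at percentile 34.4 in ctrl. replicate 1 and 49.1 in cal. res. replicate 1 only. The 15.07 kb site beside it overlapped FOXO1 (percentile 37.6) and was held by CORT alone, at 63.8 and 58.1. It also had a peak in ctrl. replicate 1 (51.3) and in cal. res. replicate 2 (21.6). The intronic 21.99 kb site was held by ctrl. and cal. res., with both cal. res. libraries well above both ctrl. libraries, at 16.7 and 20.8 in ctrl. (18.8 ± 2.88) against 70.7 and 66.5 in cal. res. (68.6 ± 2.94). CORT replicate 1 had no peak there, and CORT replicate 2 stood at 26.7. Fragments at its summit were 11 and 14 in ctrl. and 26 and 23 in cal. res., so the difference rests on low counts. The upstream -28.16 kb site was held by cal. res. alone, at 52.9 and 56.3, with peaks at 49.8 in ctrl. replicate 1 and 39.9 in CORT replicate 2. The 28.37 kb site was held by CORT alone, at percentiles of 0.497 and 15.9.

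Ppargc1b (chr18:61298136-61400431, minus strand) was the member with the most sites shared by all lists, 5 of 12. The strongest, at -37.79 kb between genes, had percentiles of 98.7 and 98.1 in the ctrl. libraries, 98.1 and 97.5 in the cal. res. libraries and 95.4 and 97.5 in the CORT libraries, and FOXO1 at 97.9. The order of cal. res. relative to the other groups rested there on differences smaller than the rounding of these values. FOXO1 also overlapped the -21.42 kb site (percentile 33.5), with GR at 96.0 and 69.3 for ctrl., 89.1 and 70.1 for cal. res. and 83.3 and 91.0 for CORT. The third FOXO1 site, at -42.43 kb (percentile 62.7), was held by cal. res. alone, at 57.7 and 69.1, with peaks at 59.6 in ctrl. replicate 1 and 67.8 in CORT replicate 2.

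The Ppargc1b promoter region, a site of 3136 bp centred 1.10 kb into the gene, covered both basic transcript starts and Mir378a, the microRNA gene in the first part of Ppargc1b, which lies 2.53 kb from the start. It had percentiles of 74.7 and 79.2 in the ctrl. libraries (76.9 ± 3.18), 51.9 and 30.4 in the cal. res. libraries (41.1 ± 15.2) and 66.0 and 77.0 in the CORT libraries (71.5 ± 7.79). Both cal. res. libraries lay below all 4 others. As a share of the fragments over the 5 shared Ppargc1b sites, it took 11.3% and 13.8% for ctrl., 7.14% and 8.14% for cal. res. and 12.2% and 13.9% for CORT. The order was the same, but the 95% exact intervals overlapped, from 4.14% to 11.3% in cal. res. replicate 1 against 6.95% to 17.1% in ctrl. replicate 1. The strongest summits fell into 2 places, within 164 bp of each other in ctrl. replicate 1, cal. res. replicate 2 and CORT replicate 2, and 1585 to 1679 bp from that of ctrl. replicate 1 in the other 3 libraries, so these values do not all describe the same position. No FOXO1 region overlapped this site. The -1.08 kb site was held by ctrl. and cal. res. and also had a peak in CORT replicate 2. The 16.59 kb site was held by ctrl. alone (40.3 and 14.1) and the 32.34 kb site by CORT alone (28.5 and 13.9), each with peaks in 2 libraries of other groups. At the intronic 26.45 kb site, cal. res. (93.5 and 90.9) lay above CORT (82.3 and 45.1), and ctrl. (70.7 and 95.1) spanned cal. res. The strongest summits of ctrl. replicate 1 (70.7) and CORT replicate 2 (45.1) lay 223 and 224 bp from that of ctrl. replicate 2. Those of the cal. res. libraries and CORT replicate 1 lay 3 to 19 bp from it.

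The windows of Pprc1 (chr19:46044886-46072915, plus strand) held other genes, and 4 of the 12 sites had Pprc1 as the nearest protein-coding gene by annotated gene start. The neighbours were Armh3, Hps6, Ldb1 and Nolc1. The site nearest the annotated gene start, at 0.36 kb (chr19:46044149-46046347), covered a transcript start of Ldb1, a LIM-domain cofactor gene. Its percentile was 62.7 and 71.8 in the ctrl. libraries, 53.6 and 21.7 in the cal. res. libraries and 47.7 and 64.8 in the CORT libraries, with the strongest summits spread over 915 bp. The coding transcripts of Pprc1 started 11.7 kb downstream, inside the 12.04 kb site (chr19:46055838-46058014). There the percentile was 62.7 and 64.1 for ctrl. (63.4 ± 0.968), 1.75 and 12.0 for cal. res. (6.87 ± 7.24) and 23.3 and 65.2 for CORT (44.2 ± 29.6). By percentile the cal. res. libraries lay below all 4 others, and the CORT replicates spanned the space between cal. res. and ctrl. The summit carried 15 and 15 fragments for ctrl., 9 and 11 for cal. res. and 7 and 22 for CORT. As a share of the 31 to 51 fragments over the 3 shared Pprc1 sites, it took 31.2% and 34.1% for ctrl., 20% and 27.5% for cal. res. and 22.6% and 43.1% for CORT. On this scale the cal. res. values lay below those of ctrl., but the exact binomial intervals overlapped, so this order rests on low counts. The intervals were 9.58% to 34.6% and 14.6% to 43.9% for cal. res. against 18.7% to 46.3% and 20.5% to 49.9% for ctrl. Cal. res. replicate 2 lay above CORT replicate 1. The strongest summits of the 6 libraries were spread over 854 bp of this site.

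The strongest Pprc1 site, at -15.00 kb (chr19:46029598-46030178), was held by cal. res. and CORT, with 68.9 and 84.4 for cal. res. and 76.7 and 84.8 for CORT. Ctrl. replicate 1 had the highest value of all there, 90.0, and ctrl. replicate 2 had no peak, so the gain rests on the library with the shortest list. The only FOXO1 site of the gene, at 46.96 kb (percentile 55.8), had the same pattern, with 72.3 and 77.9 in cal. res., 57.5 and 85.8 in CORT, 62.7 in ctrl. replicate 1 and no peak in ctrl. replicate 2. The 42.95 kb site was likewise absent only from ctrl. replicate 2. The 31.15 kb site, over a transcript start of Nolc1, was held by ctrl. (76.6 and 70.4) and CORT (50.9 and 84.9) and had a peak in cal. res. replicate 1 at 26.8.

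At Lpin2 (chr17:71182560-71249817, plus strand), the strongest site lay in an intron at 19.79 kb (chr17:71201945-71202761). Its percentile was 88.6 and 86.6 in the ctrl. libraries (87.6 ± 1.42), 96.4 and 85.7 in the cal. res. libraries (91.0 ± 7.60) and 90.1 and 91.3 in the CORT libraries (90.7 ± 0.884), with FOXO1 at 81.7. CORT lay above ctrl. by a few percentile points, and cal. res. overlapped both. The 21.99 kb site (chr17:71204205-71204900) covered an internal transcript start of Lpin2, whose promoter is printed above, and overlapped FOXO1 at percentile 48.5. GR stood there at 76.5 and 31.3 for ctrl., 44.3 and 44.5 for cal. res. and 49.9 and 68.8 for CORT. Its share of the fragments over the 2 shared Lpin2 sites was 35.6% and 29.3% for ctrl., 20.2% and 34.1% for cal. res. and 27.5% and 31.3% for CORT, and on this scale the cal. res. libraries lay on either side of both CORT libraries. The site over the upstream start, at 1.02 kb (chr17:71183232-71183920), was held by ctrl. alone, at 58.7 and 23.9. It had a peak in cal. res. replicate 1 (34.9), none in the other 3 libraries, and a FOXO1 region at percentile 9.94.

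The fourth FOXO1 site of Lpin2, at 24.90 kb (percentile 2.15), was held by cal. res. (48.9 and 34.4) and CORT (25.8 and 53.1) and had a peak in ctrl. replicate 1 at 24.5. CORT alone held the 13.58 kb site (8.42 and 17.1) and the 26.47 kb site (9.94 and 58.4). The 34.83 kb site was held by ctrl. (76.7 and 51.2) and CORT (70.3 and 70.8), with a peak at 31.7 in cal. res. replicate 1 and none in cal. res. replicate 2.

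FOXO1 overlapped 15 of the 72 GR sites (13.9% of all sites), 4 each at Lpin1 and Lpin2, 3 each at Ppargc1a and Ppargc1b and 1 at Pprc1. Each of the 16 FOXO1 regions in the windows overlapped a GR site (93.6% of all FOXO1 regions). Cal. res. held 13 of the 15 (80.1% of all sites with FOXO1). All 3 groups held 10 of the 15 (57.5% of all sites with FOXO1), against 6 of the 57 member sites without FOXO1 (9.01% of all sites without it). In every library the member sites with FOXO1 had the higher median percentile, 88.6 and 75.0 in the ctrl. libraries, 91.5 and 81.8 in the cal. res. libraries and 85.9 and 91.2 in the CORT libraries. The medians of the members without FOXO1 were 37.1 and 51.2, 51.9 and 39.6, and 49.7 and 32.3. Over all sites the medians with FOXO1 were between 69.3 and 84.5, and without it between 39.1 and 43.4, so the members had the direction that the whole data set had. The GR and FOXO1 summits at the member sites were a median of 24.0 and 39.0 bp apart for ctrl., 17.0 and 28.5 bp for cal. res. and 52.0 and 61.0 bp for CORT. Over all sites the median distance was 35.0 to 49.0 bp. FOXO1 in ctrl. and CORT livers was not analysed here.

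**Figure D4:**
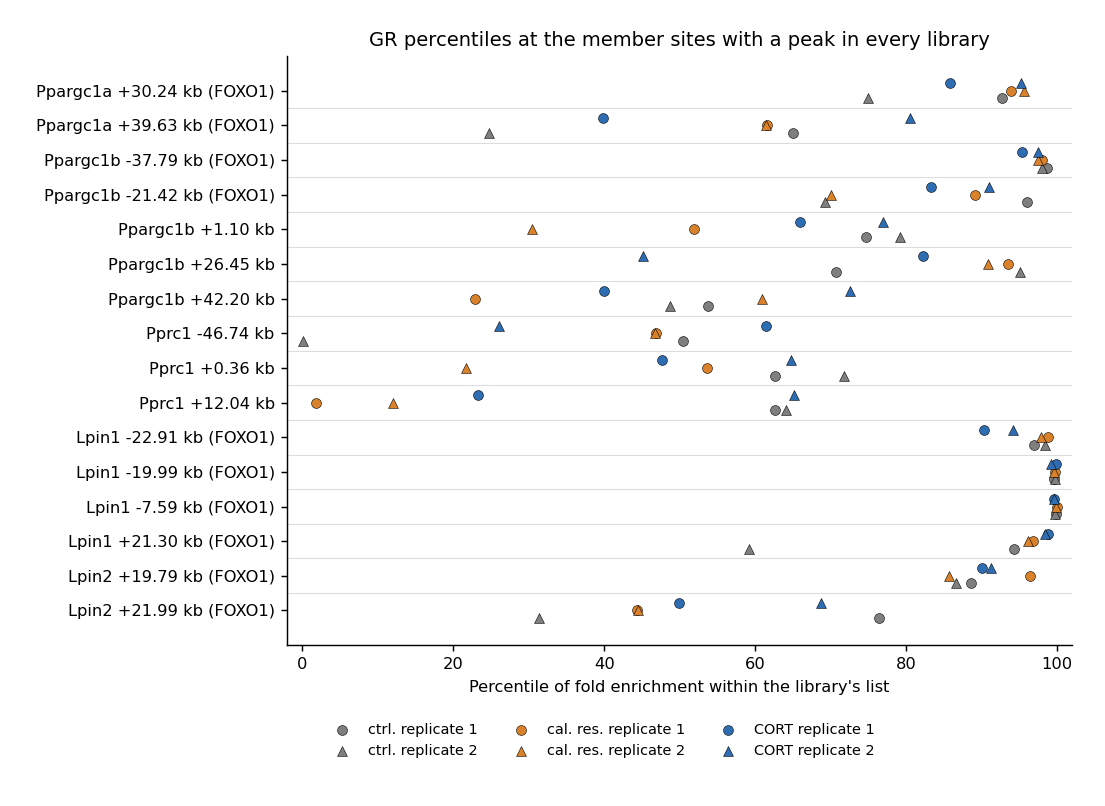
Percentile of GR fold enrichment within each library's list (x axis) at the 16 member sites with a peak in all 6 libraries (rows, with distance from the gene start), for ctrl. (grey), cal. res. (orange) and CORT (blue), circles for replicate 1 and triangles for replicate 2. The upstream Lpin1 sites stand at the right edge in all libraries, and the cal. res. points lie to the left of the others at Ppargc1b 1.10 kb and Pprc1 12.04 kb.

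At the 16 member sites with a peak in all lists, the mean percentile was 80.2 and 68.8 for ctrl. (74.5 ± 8.05, n = 2), 71.8 and 69.4 for cal. res. (70.6 ± 1.69) and 72.1 and 79.2 for CORT (75.6 ± 4.99). The difference was -3.88 for cal. res. against ctrl. (exact permutation test over libraries, two-sided p = 1.0), 1.11 for CORT against ctrl. (exact p = 1.0) and -4.99 for cal. res. against CORT (exact p = 0.333). With 2 libraries against 2, the smallest p the exact test allows is 0.333, and all 3 values adjusted by Benjamini-Hochberg over the 3 contrasts were 1.0. The same differences over all 8097 sites with a peak in all lists were -1.96, 10.2 and -12.1, and the median percentile of these sites was 61.3 in the shortest list and 87.1 in the longest. When the members were ranked among those 8097 sites only, an alternative chosen after seeing the data, the mean was 50.6 and 62.6 in the ctrl. libraries, 58.7 and 57.7 in the cal. res. libraries and 47.6 and 49.2 in the CORT libraries. On that scale each contrast had the opposite sign, at 1.65, -8.14 and 9.80, and both cal. res. libraries lay above both CORT libraries. The direction of the mean over the member sites therefore depended on the ranking.

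Site by site, both cal. res. libraries lay above both ctrl. libraries at 3 of the 16 sites (11.5% of all shared sites) and below them at 4 (20.6%). Among these, the order at Lpin1 -7.59 kb (above) and at Ppargc1b -37.79 kb (below) rested on differences below rounding. CORT lay above ctrl. at 2 (26.6%) and below at 3 (5.19%), and cal. res. lay above CORT at 4 (9.0%) and below at 4 (46.0%). The 3 sites with CORT below ctrl. were Lpin1 -7.59 kb, Lpin1 -22.91 kb and Ppargc1b -37.79 kb. At Lpin1 -22.91 kb the strongest CORT and ctrl. summits lay at different positions, and the peaks nearest the FOXO1 summit kept this order. The 4 sites with cal. res. above CORT were the Lpin1 -7.59 kb and -22.91 kb sites and the Ppargc1b -37.79 kb and 26.45 kb sites. The first 3 overlapped FOXO1, as did 10 of the 16 shared member sites, among them Lpin1 21.30 kb and Lpin2 21.99 kb with the opposite order. The order at Ppargc1b -37.79 kb rested on differences below rounding. At Lpin1 -22.91 kb the strongest summits lay at different positions. The peaks nearest the FOXO1 summit there, a measure chosen after the values were seen, had the same order. They stood at 99.0 and 98.1 for cal. res. and at 69.4 and 93.2 for CORT. The 4 with cal. res. below CORT, the Ppargc1b 1.10 kb, Pprc1 12.04 kb, Lpin1 21.30 kb and Lpin2 21.99 kb sites, each covered a transcript start of the member. They were all the shared member sites that did so, a feature noticed after the values were seen. Over any transcript start, of the member or of another gene, lay 6 shared member sites, and 4 of them had this order. Over all sites with a peak in every list, cal. res. lay below CORT at 69.4% of those over any transcript start and at 31.4% of the rest. The members therefore had the direction of the whole data set. These orders use the percentile within the whole list and carry its dependence on list length. By share of fragments, cal. res. lay below CORT at the Ppargc1b and Lpin1 sites and overlapped it at the Pprc1 and Lpin2 sites.

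The other genes of the pathway were counted by the same rule. Of 23 genes of PGC-1 partners and targets (among them Ppara, Esrra, Hnf4a, Foxo1, Pck1 and Cpt1a), 21 had a site held by ctrl., 18 by cal. res. and 21 by CORT, and 16 had a site with FOXO1. Of 10 lipin and glycerolipid genes (among them Lpin3, Gpam, Dgat1 and Dgat2), 9 had a site held by ctrl., 10 by cal. res., 10 by CORT, and 6 had a site with FOXO1. The shares over all protein-coding genes were 48.6% for ctrl., 47.2% for cal. res., 60.9% for CORT and 31.2% for FOXO1.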

How the data were processed

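GR and FOXO1 ChIP-seq was performed on snap-frozen liver. The processing notes of the labels name BWA, SAMtools, Picard, MACS2, bedtools and deepTools and the build mm10, and versions and the read totals per library were not analysed here. Peaks were called by the authors in each GR library and once on the merged FOXO1 libraries. The deposited lists give, for each region, the fold enrichment over background (a ratio), the -log10 p-value and the -log10 q-value, and the summit offset, which is a position in bp. The largest q was 0.0998 in the GR lists and 9.84e-06 in the FOXO1 list, so the FOXO1 list was the stricter.

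Rows with the same region were joined (highest fold kept), regions of different libraries that shared at least 1 bp became 1 site, and each list was ranked on its own by fold, since folds of separate lists are not on 1 scale. The percentile is the mid-rank in percent. Fragments at the summit and the background were rebuilt from the deposited fold and -log10 p-value, as the Poisson model of the peak caller relates them, and gave a whole number of fragments at 100% of the 1000 regions tried in each library. The lowest background was 0.806 fragments in CORT replicate 1 and 1.34 to 2.12 in the others, which sets how few fragments could be called. The scripts were tested on simulated data. The tools were pandas 2.3.3 with NumPy 2.4.6, SciPy 1.17.1, pysam 0.24.0 and matplotlib 3.10.9 under Python 3.11.15.

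Named sites were the held site nearest each gene start, the site with the highest mean percentile (an absent peak as 0), every site that overlapped FOXO1 and every site held by 1 or 2 groups. The genes, lists, sites and tests were chosen with earlier results of these data known. A further gene of the list of other organs is not reported here. Replicate numbers were taken from the labels, and the methods of the study describe the ChIP replicates as biological. Motif shares are over 51428 sites on chromosomes 1 to 19, X and Y. Alternatives covered thresholds, windows, overlap, ranking, the replicate block and each library left out.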

Additional observations from a re-analysis of the deposited data

How the results depend on the processing

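Most counts kept their size within 1.5 times under most alternatives. Many had little room to change, such as the ctrl. count with a cal. res. or CORT library left out, so this is no measure of stability. Where a setting bore on them, held and gained counts often moved by more than 1.5 times. None of the percentile contrasts had a direction that held under all alternatives. With all lists shortened to the same number of regions, ctrl. held 14, cal. res. 20 and CORT 14 member sites, cal. res. gained 8 and CORT 4, so that cal. res. held and gained the most, and the contrasts were -0.993 (cal. res. against ctrl.), -4.86 (CORT against ctrl.) and 3.87 (cal. res. against CORT). Shares of held and gained sites over all sites were computed only for the main setting and for lists of equal length. The counts under the other settings can therefore not be set against all sites. When either library sufficed, ctrl. held 50 sites, cal. res. 40 and CORT 66. In a 20 kb window the groups held 9, 9 and 11 sites, with 2 gained in cal. res., 5 in CORT, 5 that overlapped FOXO1 and contrasts, in the same order, of -19.7, -5.48 and -14.3. With an absent peak counted as 0 the contrasts were -0.177, 9.73 and -9.91. In a 100 kb window, cal. res. gained 12 sites and CORT 27. With sites of at most 1000 bp, the groups held 11, 12 and 16, CORT gained 9, FOXO1 overlapped 8, and cal. res. stood at 3.83 against ctrl. and 3.32 against CORT. The stronger 50% of FOXO1 rows overlapped 9 sites, and gains with no ctrl. peak were 1 in cal. res. and 4 in CORT.

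The cal. res. against ctrl. contrast was 0.141 with only sites nearest to the gene and 1.81 within a library name style, where CORT against ctrl. was -4.58. The nearest-gene setting dropped the Pprc1 12.04 kb site, over the coding transcript starts of Pprc1, because Ldb1 had the nearer annotated gene start. The mean percentile at that site was 6.87 in cal. res. against 63.4 in ctrl. Ranked among the sites of all lists (chosen after seeing the data), the contrasts were 1.65, -8.14 and 9.80. With any 1 library left out, ctrl. held 22 to 50 sites, cal. res. 25 to 35 and CORT 35 to 58, and gains were 1 to 13 in cal. res. and 4 to 38 in CORT. FOXO1 overlapped 15 in each case, but each of these sites had a peak in 3 or more libraries, so leaving 1 out could hardly remove any. The contrasts then ran from -7.89 to 2.14 (cal. res. against ctrl.), from -4.60 to 7.23 (CORT against ctrl.) and from -7.82 to -0.792 (cal. res. against CORT). Placing the window around any basic transcript start, also chosen after seeing the data, gave 23, 27 and 42 held sites.

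Replicate numbers did not pair the libraries: over 8097 sites the deviations of same-numbered libraries correlated at -0.0468 (ctrl. and cal. res.), -0.125 (ctrl. and CORT) and 0.0737 (cal. res. and CORT). The replicate block gave the same differences, -3.88, 1.11 and -4.99, with exact sign-flip p-values of 1.0, 1.0 and 0.5, where 0.5 is the smallest that 2 pairs allow. Crossing the numbers of ctrl. and CORT left the difference at 1.11, and 0.5 was again the smallest p that the sign-flip test allowed. Read depth was unknown, so a missing peak in a short list is not evidence that GR was absent.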
